A study of Homo sapiens with 6 samples.

Results

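Messenger RNA of 10 selenoprotein genes was followed in 786-O cells adapted to copper. The genes were SELENOW, GPX1, GPX4, SELENOH, SELENON, SELENOM, SELENOF, SELENOO, SELENOI and SELENOS, found by symbol among 25987 genes with a symbol in the deposited counts, and all 10 passed the filter on low counts that left 12944 genes for testing. SELENOW was chosen by its fall with copper in these same libraries, so its copper values are given as a description with no test. The other 9 were selected on their expression level as well expressed selenoproteins. SELENOH went against that wording, with 8.36 ± 1.04 CPM (counts scaled to library size; SD, n = 3) in control, and several abundant selenoproteins such as TXNRD1 and SELENOT were outside the set.

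Selenoproteins carry selenocysteine, the amino acid in which selenium takes the place of the sulfur of cysteine. It is inserted at a UGA codon that elsewhere ends translation, and this needs a hairpin (the SECIS element) in the mRNA after the coding region, a SECIS-binding protein, a dedicated elongation factor and a selenocysteine tRNA. Many family members are oxidoreductases that deal with peroxides, oxidised methionine or protein thiols. When selenium is short, some selenoprotein mRNAs, GPX1, SELENOW and SELENOH among the best known, are lost sooner than others, in part through nonsense-mediated decay triggered by the unread UGA.

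786-O is an established line from a human kidney cancer of the clear cell type and is known to have lost VHL function, which holds for both groups. The labels give the genotype as wild type. The 3 copper cultures had been adapted to serum loaded with copper sulfate. Their labels read 30, 31 and 32 uM, against 30 uM in the series text, and they were treated as 1 group. The 3 control cultures received serum handled in the same way with no copper added, and nothing in the labels says that the cultures were started independently, so p-values measure the spread between these samples.

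Total counts ran from 16301903 to 18189608 in the copper libraries and from 19219240 to 25080117 in the control libraries. Replicate 3 of both groups stood apart on the first principal component, which carried 57.9% of the variance, where the copper library scored 41.2 and its control 17.6, while the remaining 4 libraries scored -17.6 to -11.7. Of the 4 markers set for the renal carcinoma line (PAX8, EPAS1, VIM and KRT18), all 4 passed the filter, with a summed level of 3474 to 4549 CPM in copper and 3692 to 4038 in control. Summed markers were at most 0.673 CPM in copper and 0.681 in control for leukocytes (4 genes), and at most 0.244 and 0.201 for endothelial cells (3 genes). For hepatocytes (2 genes) they were at most 0.671 and 0.681. The 3 fibroblast markers summed to 2.27 to 4.82 CPM in copper and 1.68 to 3.29 in control, nearly all of it LUM, while DCN and PDGFRA stayed at or under 0.366 CPM in every library. The part of these low levels in the results was not tested.

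The feature that defines the family is the UGA codon, shown here for all 10 genes because its position along the mRNA differs among them. Each line gives 27 bases of the GENCODE 29 transcript (GRCh38), 5′ to 3′, in DNA letters, with the selenocysteine codon in capitals.
SELENOW: tattgtggcgctTGAggctacaagtcc
GPX1: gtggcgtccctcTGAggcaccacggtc
GPX4: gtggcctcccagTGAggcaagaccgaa
SELENOH: cattgcactagcTGAcgcgtctatggg
SELENON: gaccagtcctgcTGAggttcagggcgg
SELENOM: acctgcgggggaTGAcagctgaaccgc
SELENOF: gaagtttgtggaTGAaaattgggaagg
SELENOO: ctgtgcgtgacaTGAtcttcgtaacgg
SELENOI: ccaaactcagatTGActaggaatggaa
SELENOS: tcatctggcggaTGAggctaagaatct
The SELENON window comes from the transcript with a single UGA of this kind. In SELENOW the codon lay in exon 2 of 6, at chr19:47780732-47780734 on the plus strand. GPX1 had it in exon 1 of 2 (chr3:49358132-49358134, minus strand) and GPX4 in exon 3 of 7 (chr19:1105403-1105405, plus strand). In SELENOO and SELENOI it lay in the last exon, exon 9 of 9 and exon 10 of 10, and in SELENOS in exon 6 of 7.

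By the usual rule of nonsense-mediated decay, a stop codon more than about 50 bases before the last exon junction can mark an mRNA for decay. The UGA was at least 50 bases before that junction in 7 of the 10 transcripts. The distance was 342 bases in GPX4, 243 in SELENOW, 216 in SELENON, 136 in SELENOH, 135 in SELENOM, 105 in GPX1 and 78 in SELENOF. In SELENOS it was 13 bases, and in SELENOO and SELENOI the UGA came 156 and 66 bases after the junction.

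**Figure D1:**
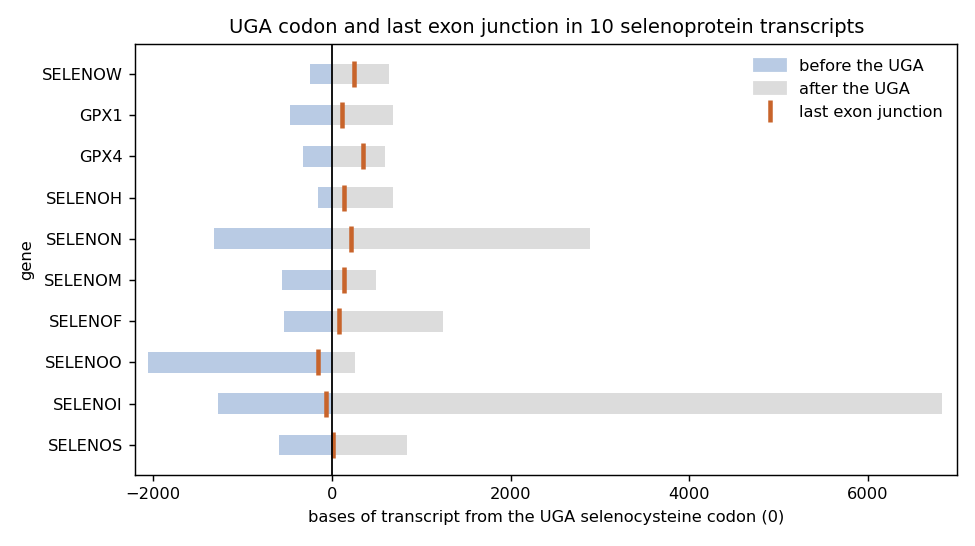
Bars show the 10 transcripts to scale in bases from the UGA codon (0), with the part before it in blue and the part after it in grey, and the orange tick marks the last exon junction. The tick lies to the right of 0 in 8 transcripts, by 13 bases in SELENOS, and to the left in SELENOO and SELENOI.

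Per length of transcript (CPM per kb, the scale on which genes are compared), control cells ranked the 10 genes from GPX4 at 249 ± 9.56 (SD, n = 3) to SELENOH at 10.0 ± 1.25. GPX4, which reduces lipid hydroperoxides and guards against ferroptosis, was followed by SELENOF at 158 ± 2.11, GPX1 at 142 ± 9.52, SELENOM at 119 ± 3.97 and SELENOW at 119 ± 9.34. SELENOM and SELENOW overlapped between libraries, as did SELENOI and SELENOH at the bottom, and no other neighbours in the control order did. SELENOW stood at the 95.8th percentile of all tested genes for its control level per kb, and SELENOH at the 53rd percentile. In copper the order of the means was the same, but SELENOW, at 57.6 ± 10.9, no longer overlapped SELENOM, at 94.8 to 145. GPX1 with SELENOM, SELENON with SELENOO and SELENOI with SELENOH overlapped in copper.

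**Figure D2:**
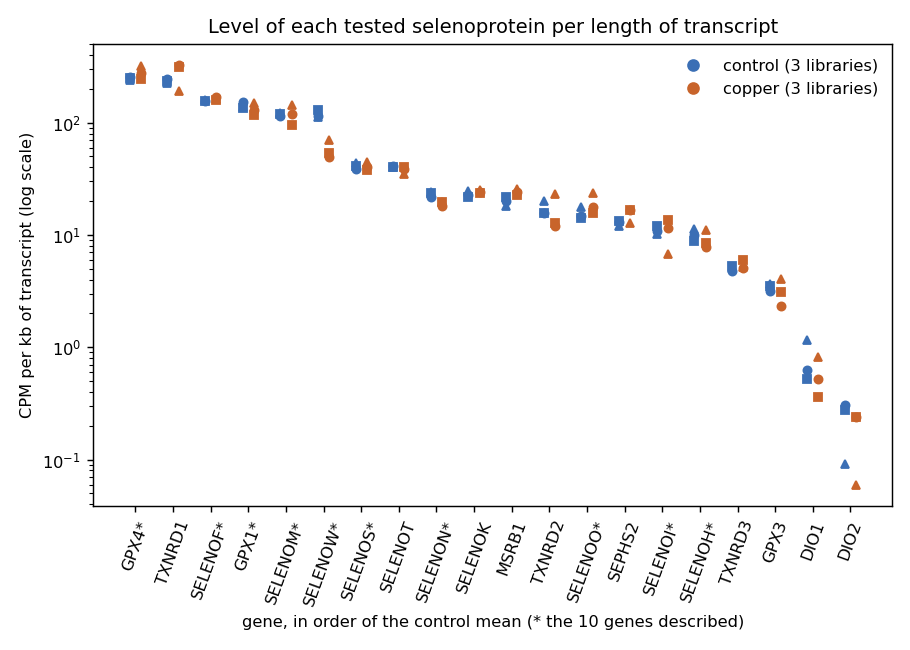
Levels of the 20 tested selenoproteins per kb of transcript on a log scale, in the order of the control mean, with each of the 6 libraries as a point (circle, square and triangle for replicates 1, 2 and 3). Among the abundant genes SELENOW, chosen by its fall, shows the widest gap between control (112 to 130 CPM per kb) and copper (49.4 to 69.9).

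SELENOW is a small cytosolic redox protein of the thioredoxin-like Rdx family, found in many tissues and best known from muscle. Its gene (Entrez 6415; chromosome 19, 47778703 to 47784682) had 719, 849 and 1151 counts in copper replicates 1, 2 and 3 and 2544, 2351 and 1906 in the controls. Scaled to library size these were 43.8, 47.6 and 62.1 CPM in copper and 102, 115 and 99.9 CPM in control. The groups did not overlap, and the highest copper library, replicate 3, was well under the lowest control, also replicate 3. The copper mean was 48.4% of the control mean (51.2 ± 9.65 against 106 ± 8.27 CPM, SD, n = 3), with a fitted log2 difference of -1.05 (SE 0.15). By replicate number the log2 difference was -1.22, -1.27 and -0.68. In bulk RNA, fewer cells making a transcript and less of it per cell cannot be told apart.

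Among all tested genes the log2 difference of SELENOW ranked 17 from the lowest of 12944, and none of the 3230 genes with a mean level at or above its own had a lower value. SELENOW was chosen by this fall, so its ranks describe the choice and are no separate evidence. It made up 8.38% to 9.56% of the summed CPM of the 10 genes in control and 3.81% to 5.01% in copper. The other 9 summed to 1090 to 1094 CPM in control and 1038 to 1178 in copper, so their total in copper spanned the control range. Of the 10 genes it had the lowest difference in every replicate, and in replicate 3 SELENOI, at -0.60, came near it.

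**Figure D3:**
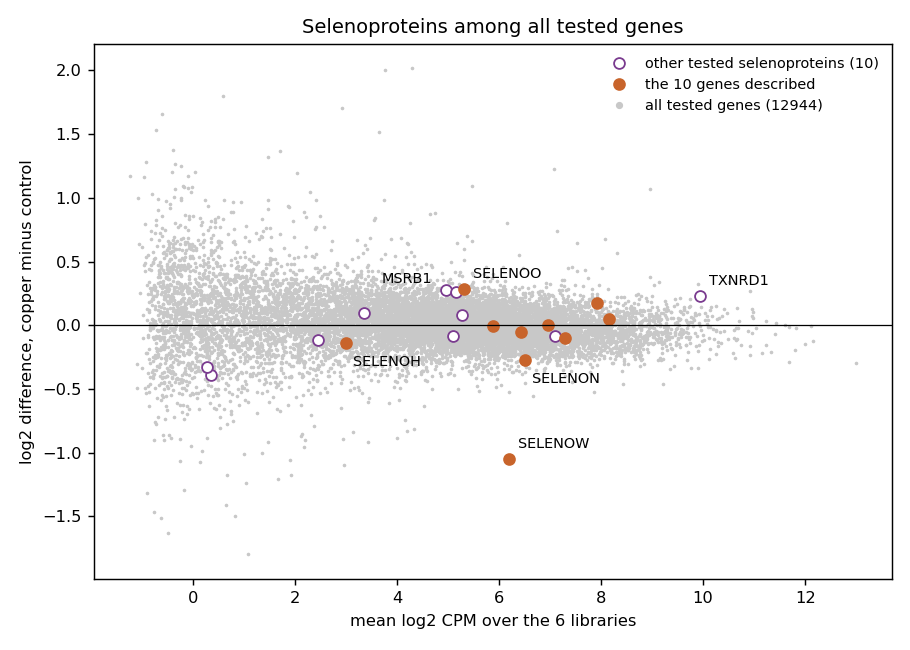
Log2 difference between copper and control plotted against mean log2 CPM for 12944 tested genes (grey), with the 10 genes described in orange and the 10 other tested selenoproteins as open circles. SELENOW, chosen by its fall in these libraries, lies at -1.05, below every gene of its level or higher. The other selenoproteins lie between -0.39 and 0.29.

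GPX1 and GPX4 are glutathione peroxidases, GPX1 acting on hydrogen peroxide in the cytosol and GPX4 on lipid hydroperoxides in membranes. GPX1 (Entrez 2876; chromosome 3, 49357176 to 49358353) was at 149, 135 and 174 CPM in copper and 176, 157 and 158 in control. It was lower in copper in replicates 1 and 2 (log2 difference -0.24 and -0.21) and higher in replicate 3 (0.14), and the groups overlapped. GPX4 (Entrez 2879; chromosome 19, 1104650 to 1106779) was at 252, 225 and 296 CPM in copper and 236, 230 and 219 in control, with overlap, and its fitted log2 difference was 0.17 (SE 0.12). For GPX1 the fitted value was -0.10 (SE 0.12). Neither peroxidase passed the test, with an adjusted p of 1.00 by edgeR for both, and GPX1, which like SELENOW is sensitive to selenium, had a copper mean of 93.3% of control.

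SELENOH, a nuclear selenoprotein of the same Rdx family as SELENOW, had the fewest counts of the 10, from 107 to 171 in copper and 150 to 206 in control. Its levels were 6.52, 7.01 and 9.23 CPM in copper and 8.29, 7.35 and 9.43 in control. It was lower in copper in each replicate, by 0.34, 0.07 and 0.03 on the log2 scale, but the groups overlapped and the fitted difference was -0.14 (SE 0.18). GENCODE places the read-through gene TMX2-CTNND1 and another protein-coding model over SELENOH on the same strand. In the deposited counts neither overlapped it. The only overlapping gene there was BTBD18, on the opposite strand, with 38 counts over the 6 libraries. How reads shared by overlapping genes were counted is not given in the sources used here, so the level of SELENOH is uncertain.

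Of the selenoproteins of the endoplasmic reticulum, SELENON, a glycoprotein tied to calcium handling whose loss causes a congenital myopathy, was the one with separate groups. Its levels (Entrez 57190; chromosome 1, 25800193 to 25818221) were 78.9, 85.1 and 85.3 CPM in copper and 94.3, 102 and 104 in control. Every copper library was under every control, and the log2 differences by replicate were -0.26, -0.27 and -0.29. The fitted log2 difference was -0.27 (SE 0.09), with an unadjusted p of 0.0189 and an adjusted p of 1.00 by edgeR's quasi-likelihood test. It was thus a small, even shift that did not pass correction over all genes, and with the replicate number as a block its adjusted p was 0.442. Groups with copper wholly below control were found for 5.35% of all tested genes. A protein-coding gene model without a gene name overlaps SELENON on the same strand in GENCODE, though no gene of the deposited counts does. The level of SELENON carries the same uncertainty as that of SELENOH.

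SELENOF and SELENOM, thioredoxin-like proteins of the endoplasmic reticulum linked to protein folding, had nearly equal group means. SELENOF was at 300, 285 and 288 CPM in copper and 280, 278 and 286 in control, with the smallest SD relative to the mean of the 10 genes in both groups (log2 difference 0.05, SE 0.08). SELENOM was at 126, 99.9 and 153 CPM in copper and 121, 126 and 130 in control. Copper replicate 2 was below all 3 controls and replicate 3 above them, with a fitted difference of 0.0041 (SE 0.15). SELENOS, a membrane protein that helps move misfolded proteins out of the endoplasmic reticulum, was at 57.7, 54.9 and 64.3 CPM in copper and 55.7, 58.8 and 62.7 in control, a difference of -0.0026 (SE 0.10).

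SELENOO is a mitochondrial pseudokinase that attaches AMP to proteins. It was at 40.7, 36.6 and 54.9 CPM in copper and 34.1, 33.1 and 41.3 in control, higher in every replicate (0.26, 0.15 and 0.41 on the log2 scale) with overlapping groups. The fitted difference was 0.29 (SE 0.17) and the adjusted p 1.00 by edgeR. With the replicate block they were 0.27 (SE 0.09) and 0.488. SELENOI catalyses the last step of phosphatidylethanolamine synthesis. It was at 94.1, 110 and 54.7 CPM in copper and 88.1, 97.1 and 83.1 in control. Copper replicate 3 alone was below the controls, and the log2 differences were 0.10, 0.18 and -0.60, so the fitted value of -0.05 (SE 0.23) averaged opposite shifts.

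**Figure D4:**
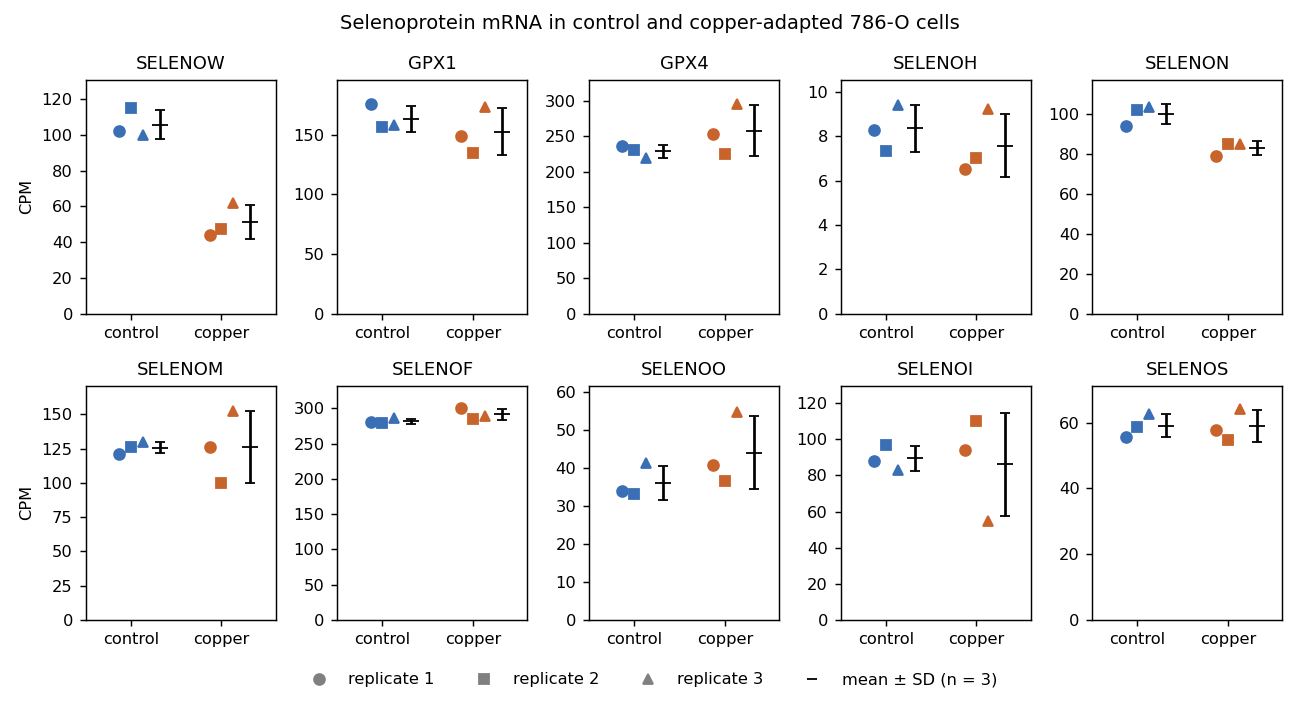
CPM of the 10 genes in each library, with control in blue, copper in orange, a symbol for each replicate number and the mean ± SD (n = 3) in black; every axis starts at 0. The groups are separate for SELENOW, which was chosen by its fall, and for SELENON, and overlap for the other 8. Of all tested genes, 5.35% lay wholly lower and 5.45% wholly higher in copper.

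No gene of the whole table passed an adjusted p under 0.05 by edgeR without the replicate block (0% of 12944), and 455 genes (3.52%) had an unadjusted p under 0.05. Accordingly 0 of the 9 genes other than SELENOW were called, 4 were above and 5 below 0 (48.6% of all tested genes were below), and 1 of them, SELENON, had an unadjusted p under 0.05. With the replicate block 22 genes (0.170%) were called in the whole table, 0.0464% of tested genes as lower, and 0 of the 9, of which 2, SELENON and SELENOO (unadjusted p 0.0106 and 0.0166), were under 0.05 before adjustment against 8.41% of all genes. DESeq2 and limma-voom called 0 of the 9 as well, with 27 genes (0.209%) called by DESeq2 over the table. Without the filter edgeR called 0.0526% of genes and again 0 of the 9. The median log2 difference of the 9 was -0.0026, beside 0.0052 for all tested genes. Of the 9 genes, 2 were below control in all 3 replicates (SELENOH and SELENON) and 2 above (SELENOF and SELENOO), where 17.0% and 17.7% of all tested genes were so.

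Copper replicate 3 stood apart for several of these genes as well. In copper, replicate 3 was the highest of the 3 libraries for 8 of the 10 genes, the exceptions being SELENOF and SELENOI. For SELENON it was nearly level with replicate 2 (85.3 against 85.1 CPM). How many of all tested genes were highest in that library was not counted. Copper replicate 3 was above the mean of replicates 1 and 2 by 0.44 for SELENOW, SELENOH and SELENOM on the log2 scale. For SELENOO it was above by 0.51 and for GPX4 by 0.31. For SELENOI, with the longest transcript of the 10 (8.10 kb), it was lower by 0.90. In control, replicate 3 lay between -0.15 for SELENOI and 0.30 for SELENOO from replicates 1 and 2.

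Over all tested genes the copper difference in replicate 3 also went with transcript length. With genes split into 4 equal classes by length, its median was 0.21 in the shortest class and -0.24 in the longest, against 0.02 and -0.01 in replicate 1. Of the 20 tested selenoproteins, 12 were in the shortest class, SELENOW (0.888 kb) among them. The part of transcript length in the differences of single genes was not tested. After a correction for length and GC content in a fit with the replicate block, SELENOW was at -1.16, SELENON at -0.25 and SELENOM at -0.115. GPX1 moved from -0.10 in the main fit to -0.20, with an adjusted p of 0.0978 by edgeR. GPX4, SELENOF and SELENOO stayed above 0. That fit called 1.49% of genes and 0 of the 9.

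**Figure D5:**
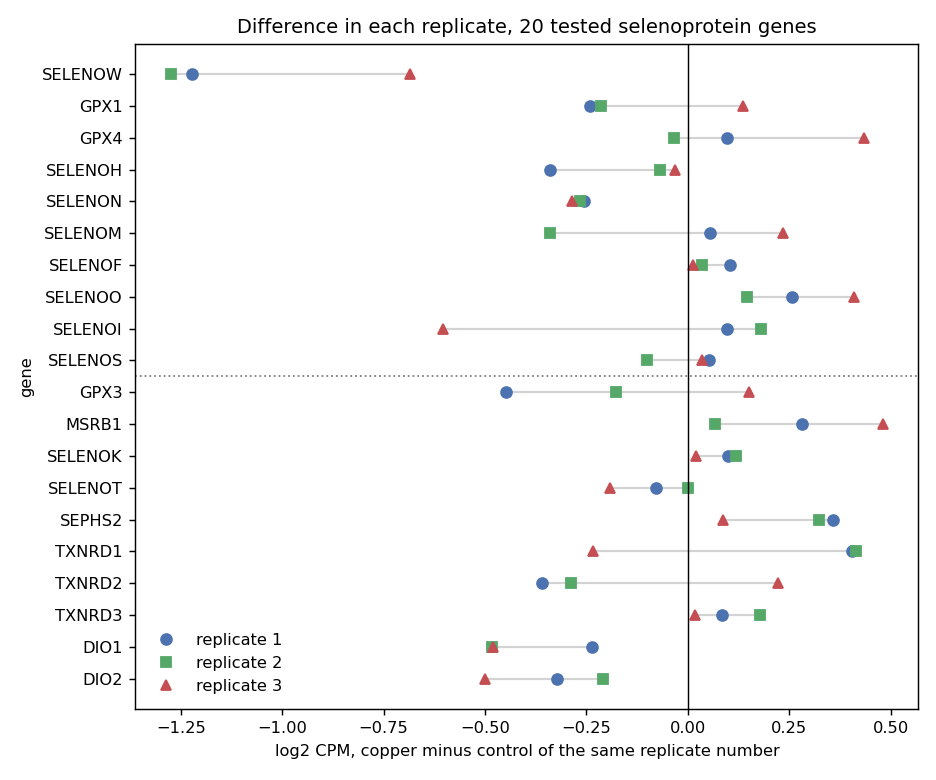
Log2 difference between the copper and control library of the same replicate number for the 20 tested selenoproteins; the 10 described in full are above the dotted line, and a grey line joins the 3 values of a gene. SELENON has the closest values among the genes away from 0, at -0.26 to -0.29, while SELENOI, TXNRD1, TXNRD2, GPX1 and GPX3 change sign in replicate 3.

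Of the 15 remaining human selenoproteins, 10 passed the filter. By edgeR 0 were called without or with the block, where 0% and 0.170% of all tested genes were called. MSRB1, which reduces oxidised methionine in proteins, was at 34.4, 32.5 and 36.3 CPM in copper and 28.3, 31.0 and 26.0 in control. All copper libraries were above all controls (5.45% of tested genes were so), with a log2 difference of 0.27 (SE 0.11), an unadjusted p of 0.0341 and an adjusted p of 1.00 by edgeR. SEPHS2, itself a selenoprotein, makes the selenophosphate from which selenocysteine is built. It was higher in each replicate, by 0.36, 0.32 and 0.09, with overlapping groups. By edgeR with the replicate block its unadjusted p was 0.0234 and its adjusted p 0.530. SELENOK, SELENOT and TXNRD3 lay between -0.09 and 0.10.

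TXNRD1, the cytosolic thioredoxin reductase and a target of the oxidative stress factor NRF2, had 235 CPM per kb in control, a little under GPX4. It was at 1282, 1220 and 754 CPM in copper and 968, 916 and 886 in control, with log2 differences of 0.41, 0.41 and -0.23 by replicate. Its fitted log2 difference was 0.23 (SE 0.19). In replicates 1 and 2 alone, edgeR called it at 0.41 with an adjusted p of 0.0133, where 111 genes (0.856%) were called. Of the other 18 tested selenoproteins, SELENOW not counted, 0 were called there. TXNRD2, the mitochondrial reductase, had the opposite signs, with -0.36, -0.29 and 0.22. GPX3 and the deiodinases DIO1 and DIO2 were low, at most 6.64 CPM in any library. GPX2, GPX6, SELENOP, SELENOV and DIO3 did not pass the filter and had at most 8 counts in a library.

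The mRNAs known to fall early in selenium shortage were set beside those that resist it. Of the 4 sensitive ones, SELENOW, GPX1 and SELENOH had log2 differences of -1.05, -0.10 and -0.14, and MSRB1 was at 0.27. Of the 4 more resistant ones, GPX4 was at 0.17, TXNRD1 at 0.23, TXNRD2 at -0.08 and SELENOS at -0.0026. The resistant mRNAs had a median of 0.09, beside 0.0052 for all tested genes, and TXNRD1 among them was at -0.23 in replicate 3. No median is set against it for the sensitive mRNAs, because SELENOW was chosen by its fall. By edgeR 0 of the 3 sensitive mRNAs other than SELENOW and 0 of the 4 resistant ones were called, beside 0% of all tested genes.

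None of the genes that make and insert selenocysteine passed the test. All 13 were tested, and 0 were called by edgeR without or with the block, beside 0% and 0.170% of all tested genes. In these fits 0 of the 13 had an unadjusted p under 0.05, beside 3.52% and 8.41% of all tested genes. Their log2 differences ran from -0.17 to 0.35 with a median of 0.0041. SECISBP2, which binds the SECIS element, was at 0.07, the elongation factor EEFSEC at 0.0046 and SEPSECS, which completes selenocysteine on its tRNA, at -0.01. Single replicates differed more: in replicate 3 SECISBP2L, a relative of SECISBP2, was at -0.61, the tRNA-modifying enzyme ALKBH8 at -0.56 and SEPSECS at -0.46, while in replicates 1 and 2 these 3 genes were at or above 0.03. The 2 with the smallest p were SEPHS1, a selenophosphate synthetase homologue, at -0.17 (SE 0.10), and the selenocysteine lyase SCLY at 0.35 (SE 0.22), with 0.68, 0.07 and 0.22 by replicate. LRP8, a receptor that takes up selenoprotein P, was at 0.12 (SE 0.12), while LRP2 did not pass the filter.

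The 10 nonsense-mediated decay factors had a median log2 difference of -0.04 and a range from -0.18 to 0.14. By edgeR 0 of 10 were called and 0 had an unadjusted p under 0.05, without or with the block. Over all tested genes 0% and 0.170% were called in these 2 fits, and 3.52% and 8.41% were under 0.05 before adjustment. The 2 with the smallest p were the endonuclease SMG6 at -0.13 (SE 0.09) and UPF3B at 0.14 (SE 0.15). For SMG6 all copper libraries were below the controls, as for 5.35% of all tested genes. The kinase SMG1, with a 16.1 kb transcript, was lower in copper replicate 3 alone (0.03, 0.05 and -0.79 by replicate). Of 6 homologues that hold cysteine where selenoproteins hold selenocysteine, 4 were tested and 0 called. Those with the smallest p were MSRB2 at 0.26 (SE 0.15) and GPX8 at -0.16 (SE 0.10), and MIEN1, the cysteine relative of SELENOW, was at 0.05 (SE 0.13).

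Split by the place of the UGA, the 10 tested selenoproteins other than SELENOW with the codon at least 50 bases before the last junction had a median log2 difference of -0.09, with 7 below and 3 above 0, where 48.6% of all tested genes were below. The 5 with the codon in the last exon had a median of 0.10, with 2 below and 3 above. Of the 3 with the codon under 50 bases before the junction (SELENOS, MSRB1 and SELENOK) 2 were above 0. Within the first class the values ran from -0.39 for DIO1 to 0.17 for GPX4, and SELENOW, left out of these counts because it was chosen by its fall, has its UGA in the same class. Whether the place of the UGA had a part in any difference was not tested.

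Promoters were searched on both strands for 2 motifs in the 250 bases upstream of the RefSeq start (GRCh38.p14), with 8 of the 10 genes matched. The core of the metal response element bound by MTF1 (TGCACNC or TGCGCNC) was found in 27.9% of 18114 promoters. GPX1, GPX4 and SELENOI each held 1 match, while SELENOW, SELENOH, SELENON, SELENOF and SELENOS held none. The core of the antioxidant response element bound by NRF2 (TGACNNNGC), found in 11.4% of promoters, had 1 match in SELENON and none in the other 7. Of the other tested selenoproteins, TXNRD1 held 1 match of each, SELENOT 1 of the metal element and SELENOK 1 of the antioxidant element. A match is a description of letters and not a bound site.

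The tested genes nearest to SELENOW on chromosome 19 are given as a description, because edgeR without the block called 0 of 12944 genes. Before it lay BICRA, EHD2 and NOP53, 75.4, 35.6 and 21.6 kb away, with log2 differences of -0.03, -0.18 and 0.04. After it lay PLA2G4C, LIG1 and ZSWIM9, 263, 331 and 386 kb away, at 0.46, 0.02 and 0.20. All 6 overlapped between groups and had an adjusted p of 1.00 by edgeR. Of all tested genes, only 5.35% lay wholly lower and 5.45% wholly higher in copper. PLA2G4C was low, at 0.588 to 1.40 CPM.

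The genes whose log2 CPM was most like that of SELENOW over the 6 libraries, out of 9257 others averaging 10 CPM or more, were WSB2 (Pearson r 0.976), L1CAM (0.963), PHACTR4 (0.960), TUBB2A (0.959) and HDLBP (0.958). These correlations describe 6 libraries that fall into 2 groups. Each of the 5 genes was below control in all copper libraries, as were 5.35% of all tested genes. The 5 were picked for likeness to a gene chosen by its fall, so their position describes the choice and is no separate evidence. The sizes differed: L1CAM, a cell adhesion molecule, was at 6.65, 7.68 and 9.28 CPM in copper and 12.1, 18.6 and 14.4 in control, a log2 difference of -0.92, while the other 4 were between -0.21 and -0.15. Among selenoproteins SELENON was the most alike (r 0.934), and GPX1 and SELENOH were at 0.547 and 0.510.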

How the data were processed

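RNA-seq counts per gene came from 3 copper and 3 control libraries. The authors deposited raw counts. STAR, FastQC, edgeR and the build GRCh38 are named, with no role or version, per the submitters' processing notes. The counting program, use of strand and treatment of reads shared by several genes are not given in the sources used here. Rows without a symbol (5 rows, 0.000814% of counts) were left out, 0 columns of other samples were present, and 1 was added to deposited starts.

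The analysis used edgeR 4.0.16 in R 4.3.3: filterByExpr (minimum count 10, minimum total 15), TMM scaling and the robust quasi-likelihood test of group, adjusted by Benjamini-Hochberg over all tested genes and called under 0.05. Log2 differences used a prior count of 2, and the SE is the log2 difference divided by the root of F. CPM is the count scaled to the TMM-adjusted library size. Transcript lengths came from GENCODE 29 by Entrez number (99.2% of tested genes). DESeq2 1.42.0 and limma-voom (limma 3.58.1) were alternatives, beside other scalings, filters, a prior count of 0.125, each library left out, replicates 1 and 2 alone and the replicate block.

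The members and lists were chosen with earlier results of these data known. Named were the selenoproteins, the 2 genes with the smallest p of each related list, the 3 tested neighbours on each side of SELENOW and the 5 genes most like it; other genes of the lists were chosen for their role, and SMG1, SECISBP2L and ALKBH8 after their values were seen.

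Replicates are numbered 1 to 3 in either group. Deviations from the group mean of same-numbered libraries correlated at 0.462, 0.396 and 0.652 over 12944 genes, all above the minimum of 0.1. Because replicate 3 stood apart in both groups, passing that minimum cannot by itself show that numbers 1 and 2 pair. Each copper library did correlate best with the control of its own number. The numbers were taken to pair the libraries, although the labels name no shared day or batch. Scripts were first tested on simulated data, with 200 of 12944 genes changed 2-fold. With replicate effects, simulated as the same in both groups, the fit without the block recovered 132 with 0 false calls and the fit with it 200 with 13. With no replicate effects, the fit without the block recovered 174 with 18 false calls and the fit with it 164 with 12.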

Additional observations from a re-analysis of the deposited data

How the results depend on the processing

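The count of genes called by edgeR was 0 without the block. DESeq2 gave 27, edgeR with no filter 12 and the replicate block 22. Adding to the block a correction for length and GC gave 192, and dropping the filter under the block 243. Replicates 1 and 2 alone gave 111, which also called 1 selenoprotein (TXNRD1, 0.409). Without copper replicate 3 it was 15, and 0 in the other 5 fits that left out 1 library. Fewer libraries gave more calls there, and the cause was not tested. SELENOW moved to -1.25 in replicates 1 and 2 alone and ranged from -1.21 (without copper replicate 3) to -0.948 (without copper replicate 1) with 1 library left out. The replicate block changed no call among the other 19 tested selenoproteins. The median of all 20 tested selenoproteins, SELENOW among them, was -0.0272 in the main fit, and -0.0026 without SELENOW. With SELENOW kept in, the median was -0.0528 with the replicate block and ranged from -0.0479 to 0.0323 with 1 library left out. It was above 0 in each of these fits except that without control replicate 1, at 0.0281 without copper replicate 2 and 0.0323 without control replicate 3.

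Differences near 0 changed sign. SELENOS was at 0.0224 with upper-quartile scaling and 0.0255 with total counts, under which the all-gene median was 0.028 and 0.033. SELENOM was at -0.0161 with no filter, -0.0166 with limma-voom, -0.0157 under the replicate block, -0.115 once length and GC were corrected for as well, -0.0353 with the block and no filter, and -0.135 in replicates 1 and 2 alone, where SELENOI was at 0.142. NOP53 was at -0.0754, -0.0140 and -0.134 with the length and GC correction, with the block and no filter, and in replicates 1 and 2. BICRA was at 0.00896 with the trend removed, and LIG1 at -0.00639 with the block and no filter and -0.0213 in replicates 1 and 2. With 1 library left out, ranges that crossed 0 were -0.157 to 0.143 for SELENOM, -0.269 to 0.191 for SELENOI, -0.0693 to 0.0427 for SELENOS, -0.446 to 0.0807 for TXNRD2, -0.334 to 0.0549 for GPX3, -0.665 to 0.0621 for DIO2, -0.193 to 0.194 for LIG1, -0.246 to 0.179 for NOP53, -0.0230 to 0.239 for UPF3B and -0.00981 to 0.342 for ZSWIM9. GPX1, GPX4, SELENOH, SELENON, SELENOF and SELENOO kept their direction under all 19 alternatives and were called under none. Among the 10 genes depth limits SELENOH most, at 107 to 206 counts a library.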
